A study of Canis lupus familiaris with 13 samples.

Results

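IGFBP2, the gene for insulin-like growth factor binding protein 2, was measured in heart tissue of 13 dog samples by 1 probe set of an Affymetrix canine array, the only one of 23836 (control probe sets left aside) that the array's annotation gives to this symbol. IGFBP2 is thus 1 gene of the 6540 named on the array. It was chosen by its own measured signals, which stood higher in Dobermans and Boxers than in controls, so its levels and differences are given here as a description with no test. The groups were Dobermans with dilated cardiomyopathy (DCM; n = 3, samples K, L and R), Boxers with DCM (n = 4, samples 1 to 4), mongrels subjected to pacing (n = 3, LV01, LV02 and LV04) and control mongrels (n = 3, P1, P4 and P9). DCM is a disease in which the heart chambers widen and the muscle contracts weakly, and rapid pacing is used in dogs to produce heart failure. The labels give total RNA of heart tissue, and no age, chamber, allele or pacing schedule. No healthy Dobermans or Boxers were among the samples, so breed and disease cannot be told apart. Each sample had 1 array, and p-values measure the spread between these samples, which the labels name separately without saying that each was a separate animal.

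IGFBP2 is one of a family of secreted proteins that bind the insulin-like growth factors IGF1 and IGF2 and control how much of them reaches the IGF1 receptor. Binding proteins keep the growth factors in the circulation and in the extracellular matrix, and proteases release them by cutting the binding proteins. IGFBP2 also carries an integrin-binding site and a heparin-binding site, through which it can attach to cell surfaces and matrix without its ligands. IGF1 signalling through PI3-kinase, AKT and mTOR promotes growth and survival of cardiac muscle cells.

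The RNA quality of the arrays was unequal. The GAPDH controls at the 3' and 5' ends of the transcript, whose signal ratio is raised by broken RNA, gave a 3' over 5' ratio of 1.08 in Doberman K, 2.10 in Doberman L and 3.62 in Doberman R, against 0.967 to 1.09 in the 10 other samples. Samples correlated with their own group at 0.789 to 0.844 in the Dobermans and at 0.947 to 0.969 elsewhere. The median signal of an array was 160 to 234 in Dobermans, 132 to 146 in Boxers, 208 to 219 in paced mongrels and 143 to 146 in controls, with every array scaled to the same trimmed mean. Spike-in control probe sets averaged 12687 to 17414 in paced mongrels and 3261 to 11260 in Dobermans. They averaged 3310 to 4134 in Boxers and 2886 to 4698 in controls. Markers of heart muscle cells (14 of 15 listed genes named on the array, among them TNNT2, MYH7 and TTN) were bright on every array, with summed signals of 236537 to 568015 over the 13 samples. No listed marker gene named on the array was at 0 in any sample. Only 3 values of the whole table were 0, so this does not show that a cell type was present.

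IGFBP2 signal was highest in the diseased breeds, intermediate and divided in paced hearts, and lowest in controls. The signals, in linear MAS5 units, were 733.3, 929.0 and 369.2 in Dobermans K, L and R. The Boxers had 590.8, 432.8, 435.7 and 622.9, the narrowest relative spread of the 4 groups. Paced mongrels LV01, LV02 and LV04 had 586.7, 158.2 and 147.9, so that LV01 lay within the Boxers' range and LV02 and LV04 did not. Controls P1, P4 and P9 had 221.6, 28.2 and 44.4, with P1 well above the other two. Every Doberman and every Boxer was above every control. The paced group overlapped the controls, since LV02 and LV04 were below P1.

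In group means, IGFBP2 averaged 677 ± 284 in Dobermans (SD, n = 3), 521 ± 101 in Boxers (n = 4), 298 ± 250 in paced mongrels (n = 3) and 98.1 ± 107 in controls (n = 3). Neighbours in this order overlapped in each case: Dobermans with Boxers, Boxers with paced mongrels through LV01, and paced mongrels with controls through P1. The spread on the log2(signal + 16) scale was 0.67 in Dobermans, 0.27 in Boxers, 1.06 in paced mongrels and 1.29 in controls (SD).

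**Figure D1:**
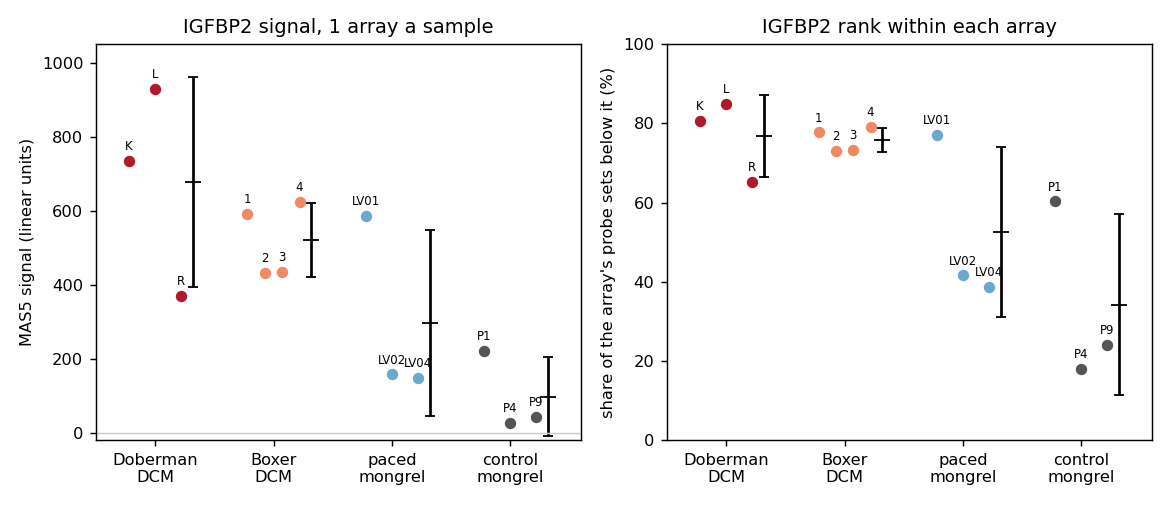
IGFBP2 in each of 13 samples by group, as MAS5 signal in linear units (left) and as the share of the array's probe sets with a lower signal, in percent (right). Points are samples, with their labels, and bars are mean ± SD. All 7 DCM samples lie above all 3 controls on both axes, and paced LV01 lies with the Boxers.

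The position of IGFBP2 within each array, which does not depend on how arrays were scaled to each other, gave the same order. IGFBP2 exceeded 80.6%, 84.8% and 65.2% of probe sets in Dobermans K, L and R. It exceeded 73.0% to 79.0% of them in Boxers. In paced samples LV01, LV02 and LV04 it exceeded 77.1%, 41.6% and 38.7%, and in controls P1, P4 and P9 it exceeded 60.3%, 18.1% and 24.2%. The smallest gap between a DCM sample and a control was thus between Doberman R, the array with the highest GAPDH ratio, and control P1.

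On the log2(signal + 16) scale, IGFBP2 was 2.92 ± 0.59 above controls in Dobermans (SE, 7.55-fold) and 2.62 ± 0.56 above them in Boxers (6.16-fold). In paced mongrels it was 1.59 ± 0.59 above controls (3.00-fold). The 3 differences share the same controls. SEs of log2 differences, here and below, come from a moderated fit over all 4 groups (limma). That fit drew the spread of IGFBP2 toward that of probe sets of like signal, which made its SEs smaller. The pooled SD of IGFBP2 within groups was 0.86 log2 without that step. Of the 14302 probe sets kept for testing, ranked from highest to lowest difference, IGFBP2 stood at place 13 in Dobermans, place 5 in Boxers and place 367 in paced mongrels. The Doberman group lay wholly above the control group for 20.9% of these probe sets, and the Boxer group for 6.32%, and these shares are given for scale only because the gene was chosen on these contrasts. The differences add 16 to each signal, which lowers the fold of dim values, and controls P4 and P9 were dim.

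Between the groups other than controls, IGFBP2 differed less. It was 0.29 ± 0.56 log2 higher in Dobermans than in Boxers (1.22-fold), a difference smaller than its SE, and with each array centred on its median it was -0.22. It was 1.33 ± 0.59 higher in Dobermans than in paced mongrels (2.51-fold) and 1.04 ± 0.56 higher in Boxers than in paced mongrels (2.05-fold), with overlapping samples in both.

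Control P1 and paced LV01 decided much of the size of these differences. Without P1 the Doberman difference from controls was 3.65 (12.6-fold), the Boxer difference 3.36 (10.2-fold) and the paced difference 2.32 (5-fold). Without LV01 the paced difference from controls was 0.98 (1.97-fold). The paced shortfall then grew to 1.94 log2 against Dobermans (3.84-fold) and 1.65 against Boxers (3.13-fold). With Doberman K alone, the Doberman sample with the GAPDH ratio of the other groups, the difference from controls was 3.12. This value rests on 1 array, whose actin ratio was above that of every control, as were the actin ratios of all other DCM samples. The part of RNA quality in the Doberman and Boxer levels was not tested.

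**Figure D2:**
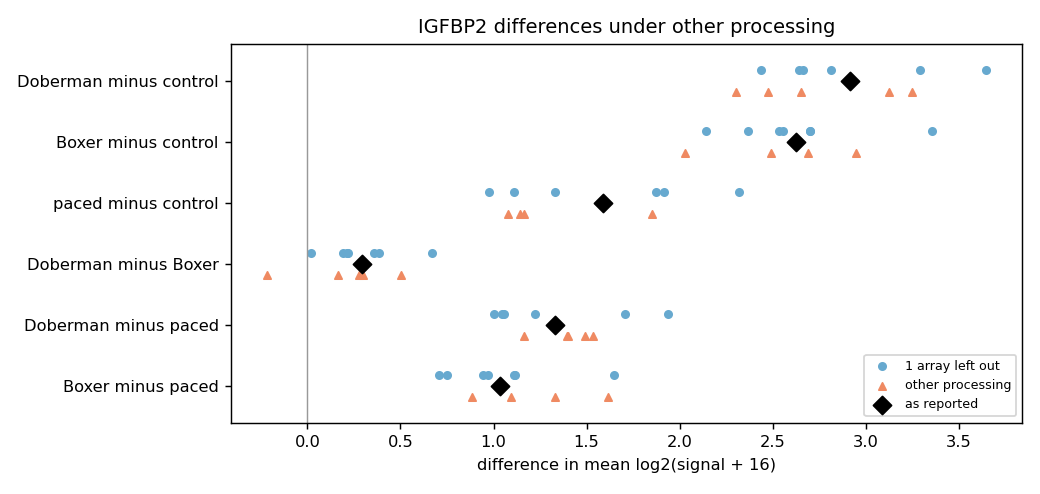
Differences in mean IGFBP2 log2(signal + 16) for 6 pairs of groups. Diamonds are the values as reported, circles are values with 1 array left out, and triangles are values under another pseudocount, another normalization or without Dobermans L and R. Every value of the 3 comparisons with controls is above 0, and Doberman minus Boxer falls on both sides of 0.

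Of the 7 family symbols, 5 were named on the array by 6 probe sets, and IGFBP3 and IGFBP5 were not named. IGFBP4, IGFBP6 and IGFBP7 passed the filter on low signal, which kept probe sets with a mean log2 value at or above the 40th percentile. Differences were tested with limma's moderated test over all 14302 probe sets, with Benjamini-Hochberg adjustment and a threshold of 0.05. Against controls, 0 of these 3 family members were called in Dobermans, 0 in Boxers and 0 in paced mongrels. By unadjusted limma p under 0.05 there were 2 in Dobermans (IGFBP4 and IGFBP7), 0 in Boxers and 0 in paced mongrels, where 42.5%, 7.40% and 28.7% of all probe sets tested had such a p. Over all 5242 named genes tested, 25.9% were called in Dobermans, 0.0572% in Boxers and 9.16% in paced mongrels, so that 0 of 3 says little about the family in Boxers.

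IGFBP4, which binds both growth factors and releases them when cut by pregnancy-associated plasma protein A, was the family member whose order of groups came closest. Its signals were 1039.7, 678.4 and 601.8 in Dobermans K, L and R, and 705.2, 651.2, 542.7 and 791.1 in Boxers 1 to 4. They were 430.9, 506.9 and 439.2 in paced mongrels and 541.3, 561.5 and 498.4 in controls. All Dobermans lay above all controls, Boxer 3 lay among the controls, and all samples of both breeds lay above all paced samples. Dobermans lay above paced mongrels without overlap for 16.7% of probe sets, and Boxers for 16.4%.

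IGFBP4 was higher in Dobermans than in paced mongrels by 0.70 ± 0.22 log2 (limma adjusted p = 0.0339, 3 of 3 Dobermans above all paced samples), the 1 family member called of 3, where 24.6% of genes were called. That call was lost when any 1 paced array or Doberman K was left out, with adjusted p between 0.0564 and 0.0962, and also under array weights, under median centring and in a fit of only these groups (limma adjusted p = 0.133, 0.0617 and 0.169). Against controls the Doberman difference was 0.48 ± 0.22 (limma adjusted p = 0.108), and 0.94 (limma adjusted p = 0.0468) with Doberman K as the only Doberman. Wherever Doberman K is the only Doberman, the spread in the test comes wholly from the other 3 groups, and 1 sample is assumed to vary as they do. The Boxer difference from controls was 0.31 ± 0.20 (limma adjusted p = 0.802) and that from paced mongrels 0.53 ± 0.20 (limma adjusted p = 0.0888), in a comparison where 14.1% of genes and 0 of 3 family members were called. IGFBP4 in paced mongrels differed from controls by -0.21 ± 0.22 (limma adjusted p = 0.555), so it was not raised with IGFBP2 in paced LV01, whose IGFBP4 signal was the lowest of all samples.

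IGFBP7, a matrix protein with low affinity for the growth factors, was low in a pair of Dobermans. Its signals were 13914.0, 3793.3 and 4793.8 in Dobermans K, L and R, and 15317.7, 11038.4, 12406.8 and 13834.2 in Boxers. Paced mongrels had 11463.0, 11366.3 and 11496.7, and controls 13828.8, 15817.9 and 9963.3. Dobermans L and R, with GAPDH ratios of 2.10 and 3.62, were low, and Doberman K was among the Boxers and controls. IGFBP7 was lower in Dobermans than in Boxers (-1.04 ± 0.34 log2, limma adjusted p = 0.0305), where 34.1% of genes were called and IGFBP7 was the 1 family member called of 3. With Doberman K alone the difference was 0.09 (limma adjusted p = 0.844). Leaving out Doberman L gave -0.67 and leaving out Doberman R gave -0.84, neither called, and the call was also lost without Boxer 1, 3 or 4, and in a fit of only the 2 breeds (limma adjusted p = 0.0882). Against controls the Doberman difference was -1.03 ± 0.36 (limma adjusted p = 0.0504), and -1.60 (limma adjusted p = 5.49e-05) without Doberman K.

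IGFBP6, which prefers IGF2 as ligand, did not pass the test in any of the 6 comparisons. Its signals were 2256.8, 1946.8 and 1759.0 in Dobermans and 1923.3, 1494.5, 1783.7 and 1649.1 in Boxers. They were 1163.6, 1812.7 and 880.3 in paced mongrels and 1791.7, 2621.8 and 1064.7 in controls, whose range covered all Dobermans and Boxers. The largest of its differences from controls was -0.47 ± 0.30 in paced mongrels (limma adjusted p = 0.326).

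IGFBP1, a binding protein that the liver makes and insulin lowers, was dim, and neither of its probe sets passed the filter. The brighter one had 26.6, 78.7 and 54.6 in Dobermans and 22.8, 17.4, 6.2 and 11 in Boxers. It had 48.1, 58.9 and 47.2 in paced mongrels and 10, 12.8 and 18.5 in controls. With all 23836 probe sets tested, this probe set was 1.15 ± 0.33 log2 higher in Dobermans than in controls (limma adjusted p = 0.0323) and 1.18 ± 0.33 higher in paced mongrels (limma adjusted p = 0.0225), in fits that called 15.6% and 18.4% of all probe sets. It was 1.15 ± 0.31 higher in Dobermans than in Boxers (limma adjusted p = 0.0184, with 25.6% of probe sets called). The 9534 probe sets under the filter were shifted as a whole, by a median of 0.50 in Dobermans and 0.53 in paced mongrels against controls, and this probe set stood at percentile 84.7 and percentile 74.2 among them. The dimmer IGFBP1 probe set ran from 4.0 to 39.0 over the 13 samples and differed from controls by 0.31 ± 0.36 in Dobermans (limma adjusted p = 0.559).

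**Figure D3:**
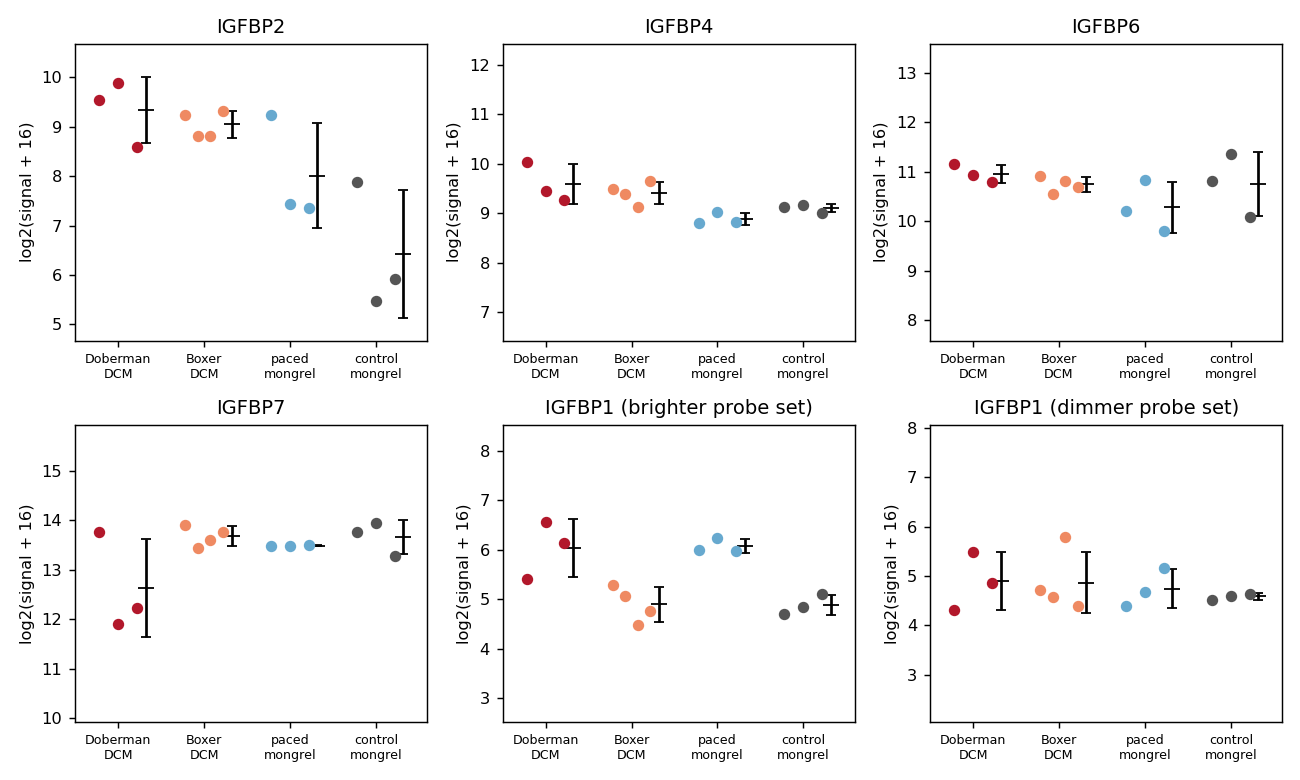
The 6 probe sets of the IGFBP family as log2(signal + 16) in each of 13 samples by group, with all vertical axes spanning the same range of 6 log2 units. Points are samples and bars are mean ± SD. IGFBP2 covers the widest range, IGFBP7 is low in Dobermans L and R, and IGFBP4 of both breeds lies above that of paced mongrels without overlap.

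Over the 13 samples, the log2 values of IGFBP2 correlated with those of IGFBP4 at a Pearson r of 0.52 (Spearman rho 0.65), with IGFBP6 at 0.14, with IGFBP7 at -0.27 and with the IGFBP1 probe sets at 0.22 and 0.12. The samples share group differences in all genes, and after group means were taken out the r with IGFBP4 was 0.14. In the dog annotation the genes next to IGFBP2 are IGFBP5, which the array did not name, and RPL37A, a ribosomal protein gene. RPL37A differed from controls by 0.20 ± 0.28 log2 in Dobermans (limma adjusted p = 0.599) and by -0.25 ± 0.26 in Boxers (limma adjusted p = 0.896). The other tested gene within 5 genes on either side, CXCR2 (a chemokine receptor), named here after its values were seen, was higher in Dobermans than in controls by 1.18 ± 0.30 (limma adjusted p = 0.0181) and differed from controls by 0.17 ± 0.28 in Boxers (limma adjusted p = 0.959).

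Of the ligands of the family, IGF1 was named on the array and IGF2 was not. IGF1 was highest in paced hearts, unlike IGFBP2. Its brighter probe set had 43.2, 61.5 and 54.6 in Dobermans, 40.7, 113.2, 76.4 and 47.7 in Boxers, 315.0, 186.8 and 356.1 in paced mongrels and 63.6, 33.2 and 169.0 in controls. The dimmer one had 166.7, 13.4 and 25.0 in Dobermans, 90.8, 11.4, 43.2 and 154.2 in Boxers, 187.0, 179.6 and 218.5 in paced mongrels and 92.7, 35.0 and 10.1 in controls. In both, all 3 paced samples lay above all samples of the other 3 groups, as they did for 10.8% of all 23836 probe sets and 16.7% of those under the filter on low signal.

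Neither IGF1 probe set passed the filter on low signal. With all probe sets tested, the brighter was higher in paced mongrels than in controls by 1.70 ± 0.47 log2 (limma adjusted p = 0.0231) and the dimmer by 2.0 ± 0.73 (limma adjusted p = 0.0707). They stood at percentiles 86.8 and 91.9 of the probe sets under the filter, which as a whole were shifted upward in paced mongrels. Paced arrays also had the highest spike-in signals, whose part in these differences was not tested. The brighter probe set was lower than in paced mongrels in Dobermans (-2.09 ± 0.47, limma adjusted p = 0.0065, with 25.1% of probe sets called) and in Boxers (-1.85 ± 0.44, limma adjusted p = 0.00899, with 24.0% called). Against controls it was -0.39 ± 0.47 in Dobermans and -0.15 ± 0.44 in Boxers (limma adjusted p = 0.569 and 0.991). In the paced group, IGF1 was thus high in LV02 and LV04, where IGFBP2 was low, as well as in LV01.

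Of the receptors, IGF1R and INSR were not named on the array. IGF2R, which takes up IGF2 and carries it to lysosomes, had a pair of probe sets that differed in their Doberman values. The brighter averaged 1966 ± 229 in Dobermans (SD, n = 3), 2467 ± 215 in Boxers (n = 4), 1704 ± 220 in paced mongrels (n = 3) and 1884 ± 122 in controls (n = 3). It was not called against controls (0.06 ± 0.16 in Dobermans, limma adjusted p = 0.807, and 0.38 ± 0.15 in Boxers, limma adjusted p = 0.6) and was 0.53 ± 0.15 higher in Boxers than in paced mongrels (limma adjusted p = 0.0295), where 14.1% of genes were called. That call was lost after quantile normalization, without Boxer 1, 2 or 4, and without paced LV01 or LV04 (limma adjusted p up to 0.13). The dimmer was 0.72 ± 0.23 higher in Dobermans than in controls (limma adjusted p = 0.039, 3 of 3 Dobermans above all controls), and was 0.39 without Doberman L. In Boxers it was 0.42 ± 0.22 above controls (limma adjusted p = 0.72), near the value of the brighter one. Its Doberman call was lost without Doberman L or any 1 control, under median centring, with the GAPDH covariate and in a fit of only these groups.

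Around the family, 112 symbols of the IGF pathway were listed, some of them older names of the same gene (ligands, receptors, proteases and partners of the binding proteins, related matrix proteins, cell-surface partners of IGFBP2, signalling genes and binders of IGF2 mRNA, without the IGFBP family itself). Of these, 51 were named on the array and 41 were tested, each by its brightest tested probe set. In Dobermans against controls, 6 were called higher and 7 lower, 31.7% of the list, where 11.9% of all genes were called higher and 14.0% lower. The list's median difference was 0.07 log2, against 0.04 over all genes. In Boxers 0 of 41 were called (0 higher and 0 lower), and 6 of 41 had an unadjusted limma p under 0.05, where 0.0572% of all genes were called and 7.40% of probe sets had such a p. In paced mongrels 2 were called higher and 0 lower, 4.88% of the list, against 9.16% of all genes. Between Dobermans and Boxers 14 were called (7 higher and 7 lower), 34.1% of the list and 34.1% of all genes. Between Dobermans and paced mongrels there were 7 calls (17.1% of the list, against 24.6% of all genes), and between Boxers and paced mongrels 5 (12.2%, against 14.1%).

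Among proteases and partners of the binding proteins, CTSB (cathepsin B, a lysosomal protease) was higher in Dobermans than in controls. It had 7838.0, 15313.9 and 9176.3 in Dobermans against 4571.1, 4027.4 and 4715.2 in controls, a difference of 1.22 ± 0.24 log2 (limma adjusted p = 0.00834). All Dobermans were above all controls. ADAM9, a membrane protease that can cut IGFBP5, fell by 1.14 ± 0.33 (limma adjusted p = 0.0283). Doberman K, at 962.4, was level with the controls (966.7 to 1155.8), and Dobermans L and R were at 320.6 and 317.2. With Doberman K alone the ADAM9 difference was -0.11 (limma adjusted p = 0.846).

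Among cell-surface partners, the integrin chains moved in opposite directions in Dobermans. ITGA5, the alpha chain of the fibronectin receptor that IGFBP2 can bind, had 1257.9, 3243.2 and 1806.0 in Dobermans against 772.6, 892.7 and 818.5 in controls (1.22 ± 0.30 log2, limma adjusted p = 0.0155). ITGB5, a beta chain of vitronectin receptors, was higher by 0.71 ± 0.19 (limma adjusted p = 0.0194). ITGB1, the beta chain that pairs with ITGA5, had 5580.4, 635.8 and 583.7 in Dobermans against 4357.7, 4935.0 and 4124.2 in controls (-1.79 ± 0.59 log2, limma adjusted p = 0.0422). Doberman K was above all controls for ITGB1, and Dobermans L and R, the arrays with raised GAPDH ratios, were below them.

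Among signalling genes, SHC1 (an adaptor of the IGF1 receptor), MTOR (the growth kinase) and TSC2 (its inhibitor) were higher in Dobermans, by 1.17 ± 0.22, 1.00 ± 0.30 and 0.56 ± 0.18 log2 (limma adjusted p = 0.0073, 0.0315 and 0.0395). The lower ones were YWHAZ (a 14-3-3 protein, -1.28 ± 0.39), PIK3R1 (the regulatory subunit of PI3-kinase, -0.94 ± 0.27) and RHEB (the activator of mTOR, -0.88 ± 0.29). RPS6KB1 (S6 kinase, -0.72 ± 0.21) and GRB14 (an adaptor that restrains insulin signalling, -0.71 ± 0.22) were lower too. The adjusted p of these 5 lay between 0.0265 and 0.0411 by limma. In paced mongrels, NRAS was higher by 1.17 ± 0.31 (limma adjusted p = 0.0255) and EIF4EBP1, a target of mTOR that holds back translation, by 0.86 ± 0.20 (limma adjusted p = 0.0154), and the count of calls was 0 without control P4 or P9 or paced LV02 or LV04, and 1 without control P1. Those fits called 5.71% to 7.79% of all probe sets.

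With Doberman K as the only Doberman, 0 of the 13 pathway genes called in Dobermans were called, and 2 others were: STC1 (1.79, limma adjusted p = 0.0139) and CCN2 (1.47, limma adjusted p = 0.0272), named here after their values were seen. These p-values rest on 1 Doberman and on the spread of the other groups. That fit called 3.2% of all genes. ITGB1, RHEB and YWHAZ were then 0.32, 0.0394 and 0.0136 log2 above controls, so their lower levels were those of Dobermans L and R. Without Doberman K the count was 25, where 51.4% of all probe sets were called. Without control P1, P4 or P9, or Doberman L or R, it was 3 to 5, where 8.33% to 12.8% were called. Adding the GAPDH ratio to the model left 0 calls, and fitting Dobermans and controls alone also left 0. Those fits called 0.664% and 0.140% of all probe sets, so 0 of 41 says little about the list in either.

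**Figure D4:**
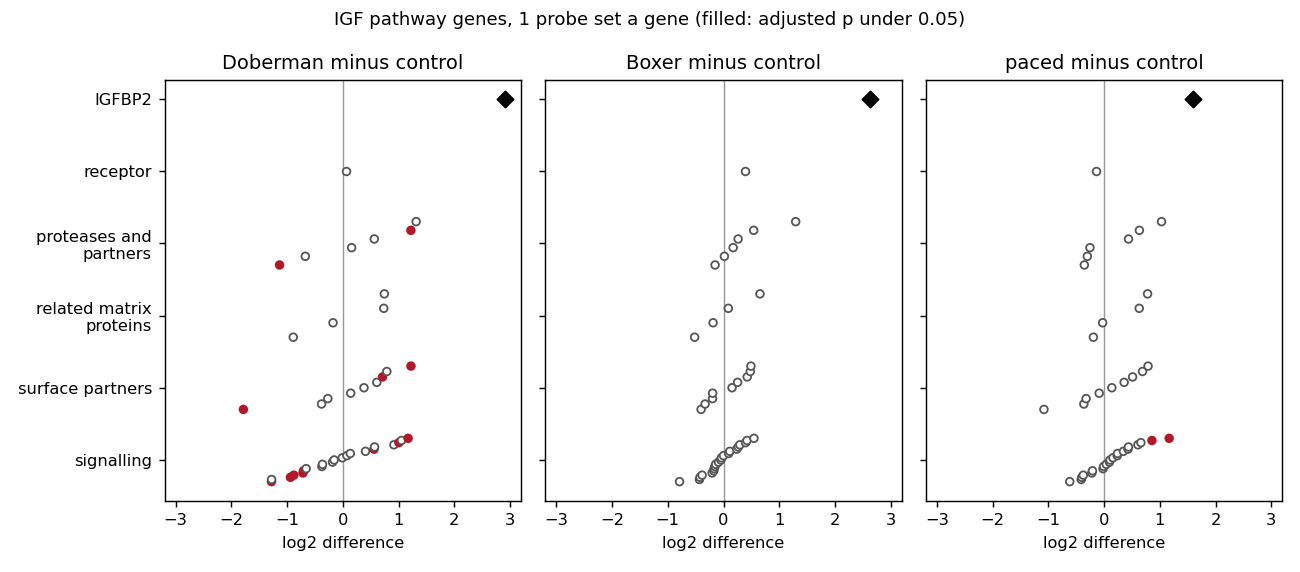
Log2 differences from controls of IGFBP2 (diamond, not tested) and of tested IGF pathway genes outside the IGFBP family (circles, 1 probe set a gene, grouped by role) in Dobermans, Boxers and paced mongrels. Filled circles passed an adjusted p of 0.05 (limma). IGFBP2 lies beyond every pathway circle in all 3 panels, as it was chosen to do in the Doberman and Boxer panels.

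The genes whose log2 values ran most like those of IGFBP2 over the 13 samples were sought among 5099 tested genes, whose median Pearson r with IGFBP2 was 0.003. The 10 highest were GOSR2 (0.81), CXCL16 (0.80), PHGDH (0.80), EIF4ENIF1 (0.80), CLU (0.79), TIMP2 (0.79), CILP (0.78), MFAP4 (0.77), DSE (0.77) and DGAT2 (0.77). The 5 lowest were ALDH7A1 (-0.81), SIAH1 (-0.80), FBXW7 (-0.79), DDIT4L (-0.78) and PAM16 (-0.77). Before rounding, 1 gene of the 5099 had an r over 0.8 and 1 an r under -0.8. With controls left out, r was 0.40 to 0.86 for the 10 highest, lowest for PHGDH and highest for CLU. These values are descriptions of 13 samples in 4 groups that differ in many genes at once. The genes were picked for running like or opposite to IGFBP2, so an order of groups shared with it is not a separate result. With group means taken out, r was 0.80 for GOSR2 and 0.80 for CXCL16, and 0.31 to 0.63 for the other 8 of the highest.

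CLU, the extracellular chaperone clusterin, had 13149.8, 12089.1 and 9492.6 in Dobermans, 5227.9, 4292.8, 4173.9 and 6310.1 in Boxers, 4108.5, 1926.2 and 950.8 in paced mongrels and 1681.0, 1809.8 and 1578.3 in controls. Like IGFBP2 it was highest in Dobermans and, within the paced group, highest in LV01, but unlike IGFBP2 it did not overlap between Dobermans and Boxers. How many probe sets kept these breeds apart was not counted. CILP, a matrix protein of cartilage and fibrotic heart, averaged 949 ± 622 in Dobermans (SD, n = 3), 770 ± 323 in Boxers (n = 4), 435 ± 148 in paced mongrels (n = 3) and 213 ± 36.5 in controls (n = 3). MFAP4, a protein of elastic microfibrils, averaged 1237 ± 504 in Dobermans, 763 ± 186 in Boxers, 735 ± 232 in paced mongrels and 307 ± 85.1 in controls, with the lowest paced sample at 494.5 and the highest control at 392.1.

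CXCL16, a membrane-bound chemokine, had 345.9, 154.4 and 255.2 in paced LV01, LV02 and LV04, and 174.4, 78.2 and 112.4 in controls P1, P4 and P9. LV01 and P1 were the highest of their groups, as for IGFBP2, but LV04 lay between the other paced samples. PHGDH, the first enzyme of serine synthesis, had 354.5, 335.5 and 376.3 in Dobermans, 443.1, 485.0, 308.1 and 416.2 in Boxers, 346.6, 364.2 and 244.9 in paced mongrels and 226.6, 169.3 and 71.9 in controls. In the opposite direction ALDH7A1, a mitochondrial and cytosolic aldehyde dehydrogenase, averaged 472 ± 116 in Dobermans, 542 ± 133 in Boxers, 809 ± 187 in paced mongrels and 1073 ± 67.5 in controls. All 7 DCM samples lay below all controls for ALDH7A1, a gene picked for running opposite to IGFBP2. The share of all probe sets with that separation was not counted.

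**Figure D5:**
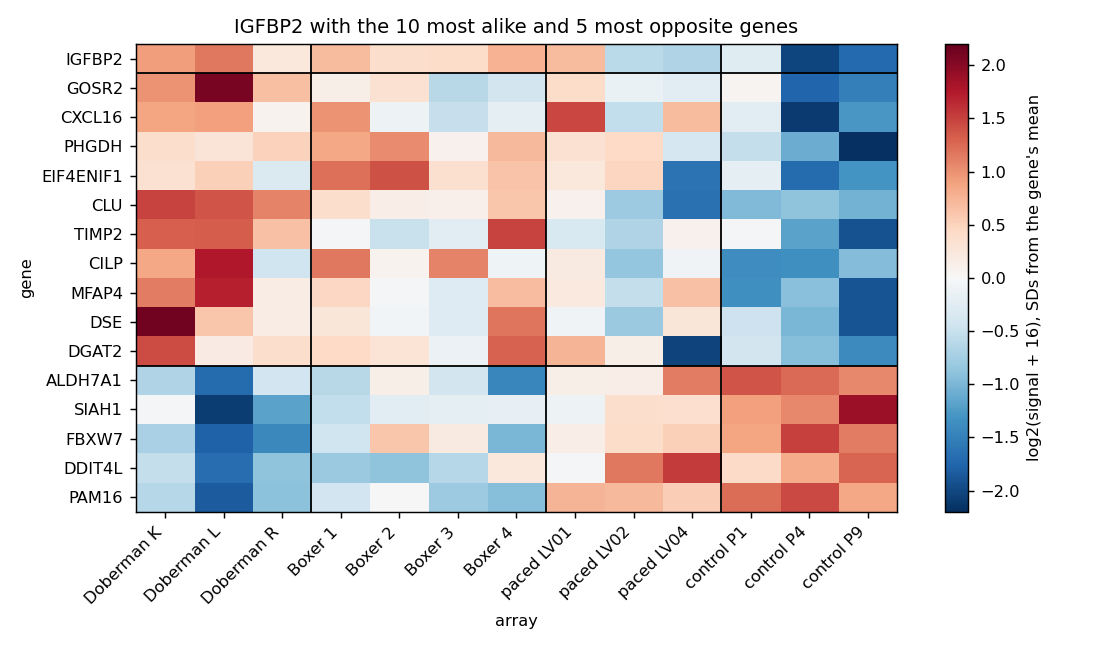
Log2(signal + 16) of IGFBP2, the 10 genes most like it and the 5 most opposite in 13 samples, each gene shown as SDs from its own mean over the samples (red above, blue below). Rows are genes and columns are samples, grouped as Doberman, Boxer, paced and control. IGFBP2 is above its mean in all 7 DCM samples and paced LV01 and below it in the other 5 samples.

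Fewer cells of a type and less RNA per cell cannot be told apart in this bulk tissue. Fibroblast markers (11 of 14 named, 10 tested) had summed signals of 32888 to 48856 in Dobermans, 40898 to 56874 in Boxers, 27583 to 34726 in paced mongrels and 29634 to 43796 in controls. In Dobermans against controls, where 25.9% of all genes were called, 3 of the 10 tested were called higher (MFAP4 1.90, S100A4 1.52 and DCN 0.67 log2, limma adjusted p = 0.00559, 0.0202 and 0.0368) and 0 were called lower. Of the 7 not called, 5 had values below controls, among them COL3A1 (-1.03) and COL1A2 (-0.32), and 2 had values above them. Smooth muscle and pericyte markers (6 of 12 named and tested) summed to 43162 to 67137 in Dobermans, 31603 to 38477 in Boxers, 23103 to 28376 in paced mongrels and 22140 to 32989 in controls, with 3 of 6 called higher in Dobermans (DES, SYNPO2 and MCAM), where 11.9% of all genes were. DES alone averaged 36444 in Dobermans and 14133 in controls, a large part of these sums. DES and SYNPO2 are also genes of heart muscle cells, so these sums and calls do not single out smooth muscle or pericytes. ACTA2 (0.52), TAGLN (0.54) and MYH11 (0.08 log2) were not called in Dobermans against controls (limma adjusted p = 0.173, 0.202 and 0.903). Macrophage markers (11 of 12 named) summed to 2426 to 7878 in Dobermans, 3447 to 9248 in Boxers, 2654 to 3391 in paced mongrels and 2305 to 4335 in controls. Of the 8 tested, TYROBP was called higher in Dobermans (1.09 log2, limma adjusted p = 0.0185) and LYZ lower (-1.20 log2, limma adjusted p = 0.036). The other lists held calls in Dobermans too, where 25.9% of all genes were called. Of 14 heart muscle markers 1 was lower, and of 9 endothelial ones 1 was higher and 1 lower. Of lymphocyte markers 1 of 4 was higher, of liver ones 2 of 3 and of epithelial ones 1 of 2. Atrial and adipocyte markers had 0 of 3 called each. In Boxers 0 of the 10 fibroblast, 6 smooth muscle and 8 macrophage markers tested were called against controls by limma, and 3, 1 and 1 of them had an unadjusted p under 0.05, where 0.0572% of genes were called and 7.40% of probe sets had such a p. The part of these cell types in the IGFBP2 levels was not tested. IGFBP2 correlated with the GAPDH ratio at r = 0.23 (rho 0.36) and with the arrays' median signal at r = 0.14 over the 13 samples. Its correlation with the actin ratio was not computed.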

How the data were processed

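The authors deposited 1 table of 13 arrays holding MAS5 intensity values, linear and not logged, from total RNA labelled in 1 cycle per the labels' protocols. The version of MAS5 is not given in the sources used here. Checked on the file, each array's trimmed mean lay between 500.06 and 500.08, signals ran from 0 to 95340.1 and 3 values were 0. The number of arrays limits the precision, and no detection calls were used. Control probe sets (77) were set aside. Of 23836 others, 10549 had 1 gene symbol in the platform annotation, 138 several and 13149 none.

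Signals were converted to log2 after adding 16. A low-signal filter at the 40th percentile of mean log2 (6.95, a signal of 108) kept 14302 probe sets, for 5242 genes, each gene represented by its brightest probe set. limma 3.58.1 in R 4.3.3 fitted 1 mean per group over all 13 arrays (9 residual degrees of freedom), with a trended prior and Benjamini-Hochberg adjustment over all probe sets kept. The test was checked on simulated data that gave every group the same spread. That check does not cover the wider spread among the Dobermans. Figures were drawn with matplotlib 3.10.9 in Python 3.11.15.

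IGFBP2, the gene lists and the tests were chosen with earlier results of these data known. The text names every IGFBP probe set, IGF1, IGF2, IGF1R, IGF2R and INSR, up to 8 called pathway genes in each direction for each comparison with controls, the 10 genes most and 5 least like IGFBP2 by Pearson r, and up to 3 called markers per list, given here for the fibroblast, smooth muscle and macrophage lists. Alternatives were pseudocounts of 1 and 64, quantile normalization, median centring, no filter, a filter at the 60th percentile, array weights, the GAPDH ratio as a covariate, fits of only the groups compared, each array left out, and, added after seeing the data, both Dobermans L and R left out. No sequence is shown because no sequence table was used here.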

Additional observations from a re-analysis of the deposited data

Results flagged for a closer look

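IGFBP7 stood out because its effect differed between the diseased breeds by a direct test: Doberman minus Boxer was -1.04 log2 (limma adjusted p = 0.0305), with both breeds set against the same controls. Its mean signals were 7500 ± 5577 in Dobermans (SD, n = 3) and 13149 ± 1842 in Boxers (n = 4). Dobermans L and R, whose GAPDH 3' over 5' ratios were 2.10 and 3.62, held the low values, and Doberman K, with a ratio of 1.08, had 13914.0. With the ratio as a covariate the difference was -0.16 (limma adjusted p = 0.824). The part of RNA quality in this difference was not tested beyond these values. Among 40 probe sets looked at in the 4 Boxers, 0 had a sample far enough from the other 3 to pass Dixon's critical value of 0.829.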

How the results depend on the processing

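Every IGFBP2 difference from controls stayed above 0 with 1 array left out, under other pseudocounts and normalizations, and without Dobermans L and R. The IGFBP2 difference was not computed with array weights, the GAPDH covariate, other filters or fits of only the groups compared. With 1 array left out at a time it ran from 2.44 to 3.65 log2 in Dobermans, 2.14 to 3.36 in Boxers and 0.98 to 2.32 in paced mongrels. It ran from 1.00 to 1.94 for Dobermans minus paced, 0.71 to 1.65 for Boxers minus paced and 0.02 to 0.67 for Dobermans minus Boxers. Pseudocounts of 1 and 64 gave 3.25 and 2.30 in Dobermans, 2.95 and 2.03 in Boxers and 1.85 and 1.14 in paced mongrels. Quantile normalization gave 2.65, 2.49 and 1.16 for these groups, and median centring 2.48, 2.69 and 1.08. Median centring turned Doberman minus Boxer to -0.22, and it moved the median of all probe sets tested to -0.25 in Dobermans and -0.45 in paced mongrels, against 0.19 and 0.06 without it. Of the probe sets called in Dobermans against controls, 2047 were higher and 1597 lower as reported, 1075 and 1649 after quantile normalization, and 507 and 3115 after median centring. In paced mongrels against controls they were 1212 and 535 as reported, 633 and 848 after quantile normalization, and 530 and 3394 after median centring.

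Family calls in Dobermans against controls were 0 to 1 with 1 array left out and 1 under array weights, the 60th percentile filter, median centring, no filter or a pseudocount of 64. The shares of all probe sets called were 8.33% to 51.4%, 27.0%, 29.0%, 25.3%, 15.6% and 27.2% in that order. In paced mongrels against controls there was 1 under median centring and 1 with no filter, where 27.4% and 18.4% of all probe sets were called. Between Dobermans and Boxers they were 0 to 1 with 1 array left out, 0 in the fit of 2 groups, 0 with the GAPDH covariate and 2 with no filter. Those fits called 15.5% to 56.7%, 14.8%, 0.392% and 25.6% of all probe sets. Between Dobermans and paced mongrels they were 0 to 1 with 1 array left out, 0 in the fit of 2 groups and 0 under median centring, with shares of 14.9% to 43.2%, 3.66% and 24.0%. Between Boxers and paced mongrels there was 1 under array weights, in the fit of 2 groups, with the GAPDH covariate and with no filter, and 2 under median centring. The shares there were 36.9%, 36.3%, 26.5%, 24.0% and 37.8%. Without Dobermans L and R, IGFBP7 in Dobermans minus Boxers was 0.0921, and ITGB1, RHEB and YWHAZ in Dobermans minus controls were 0.32, 0.0394 and 0.0136.

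Pathway calls in Dobermans against controls (13) were 3 to 25 with 1 array left out, 0 in the fit of 2 groups and 0 with the GAPDH covariate. The shares of all probe sets called were 8.33% to 51.4%, 0.140% and 0.664%. In Dobermans against Boxers (14) they were 4 to 25, 2 and 0 under the same alternatives, with shares of 15.5% to 56.7%, 14.8% and 0.392%. In Dobermans against paced mongrels (7) they were 6 to 23 with 1 array left out, 12 under array weights, 2 in the fit of 2 groups, 2 with the GAPDH covariate and 11 with no filter. The shares were 14.9% to 43.2%, 24.2%, 3.66%, 7.19% and 25.1%. In paced mongrels against controls (2) they were 0 to 2 with 1 array left out, 12 under array weights and 1 with the 60th percentile filter. They were 9 in the fit of 2 groups, 5 with the GAPDH covariate, 5 under median centring and 6 with no filter. The shares of all probe sets called were 5.67% to 7.79%, 29.5%, 5.61%, 25%, 20.5%, 27.4% and 18.4% in that order. In Boxers against paced mongrels (5) they were 3 to 4 with 1 array left out, 14 under array weights and 3 with the 60th percentile filter. They were 14 in the fit of 2 groups, 9 with the GAPDH covariate and 11 under median centring. With no filter there were 9 and after quantile normalization 1. The shares there were 9% to 13%, 36.9%, 9.49%, 36.3%, 26.5%, 37.8%, 24.0% and 13.5% in that order. Of the 10 genes most like IGFBP2, 6 remained after quantile normalization, 1 by Spearman rho, 2 within groups, 3 without Boxers, 1 without controls, 2 without Dobermans and 4 without paced mongrels. The cause of these changes was not tested. No paired analysis was possible because the groups share no replicate labels. The 3 or 4 arrays a group, 1 probe set for IGFBP2 and control signals of 28.2 and 44.4 limit how well the size of its difference is known.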
